A study of Rattus norvegicus with 2 samples.

Results

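Heterotrimeric G proteins and the RGS proteins that switch them off were examined in hypothalamus of SHR, the spontaneously hypertensive rat, whose blood pressure climbs with age, in both sexes. Members were the genes for alpha, beta and gamma subunits and the numbered RGS genes, found by matching the RefSeq accessions of the array's probes to rat gene symbols. The selection left out 2 genes of these families. Of 16581 named genes with a probe, 48 were members, 29 for G protein subunits and 19 for RGS proteins, on 69 probes. The rats were male and female SHR aged 9 weeks with no labelled treatment, killed by ether and decapitation, and no other strain was compared. Equal amounts of RNA (100 ng) from 5 rats went into 1 pool per sex, and each pool was hybridised to 1 single-colour Agilent array. With 1 pool and 1 array per sex, the spread between animals was not measured, no test was possible, and each difference describes these 2 pools only; "in males" and "in females" stand for them.

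A G protein is a trimer in which the alpha subunit binds GTP when a receptor is activated and then separates from the beta-gamma dimer, so that both can act on enzymes and ion channels. RGS proteins speed up GTP hydrolysis by alpha subunits of the Gi/o and Gq families and so shorten the signal. In the hypothalamus, receptors for vasopressin, angiotensin, opioids, monoamines and most releasing peptides work through these proteins.

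Signal is given as a percentage of each array's 75th percentile among spots for rat transcripts, which was 2203 units for males and 2254 units for females. Signals well above background made up 71.6% of the male array's and 73.0% of the female array's spots, and no spot was saturated. Differences are male minus female on the log2 scale, so positive values are higher in males. Technical SD is the spread of such a difference expected from repeat spots of a probe on an array. It was 0.072 for 1 spot above the 75th percentile, 0.087 for log2 signals of -2 to 0, 0.13 for -4 to -2, and 0.25 in both lower bins. It covers printing and scanning, not animals or arrays. Large differences clustered on the slide: of 1602 measured spots differing 2-fold or more, 1170 lay in patches. A spot lay in a patch if 2 or more of its 18 nearest neighbours from other probes differed that much in 1 direction. Of measured spots differing by less than 2-fold, 10.6% lay in patches. Hypothalamic markers were present: 11 of 12 were well above background in both pools, and the transcription factor gene Otp passed in females only.

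Of the 48 members, 43 were well above background on both arrays and 5 on neither; no member was measured on 1 array only. Differences were small. No member was higher in males by 1.5-fold or more, against 4.14% of the 26110 measured genes and transcripts. Above log2 -6 that share fell with signal, from 5.16% at log2 -6 to -4 to 0.479% at -2 to 0 and 0.237% above 0. The share among genes below log2 -6 was not computed. Dim genes thus weigh most in the shares past a fold, which are no like-for-like reference for brighter members. Gnaq was the 1 member at least 1.5-fold lower, or 2.33% of those measured, against 2.73% of all genes. At 1.2-fold, Gng11 and Rgs1 were higher (4.65% of members, against 9.08% of all genes) and Gnaq, Gnai1 and Rgs17 were lower (6.98%, against 8.09%). By sign alone, 19 members were higher and 24 lower in males, close to the 45.0% higher and 55.0% lower among 24134 genes measured on both arrays. At 2-fold there was no member on either side, against 2.56% of all genes higher and 1.64% lower. The members' median was -0.02, as was the median of all those genes. With normexp background correction the members' median was 0.02, with 25 higher and 18 lower; the median of all genes also turned, to 0.01, with 53.5% higher. In bulk RNA, fewer cells of a type and less RNA per cell cannot be told apart.

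**Figure D1:**
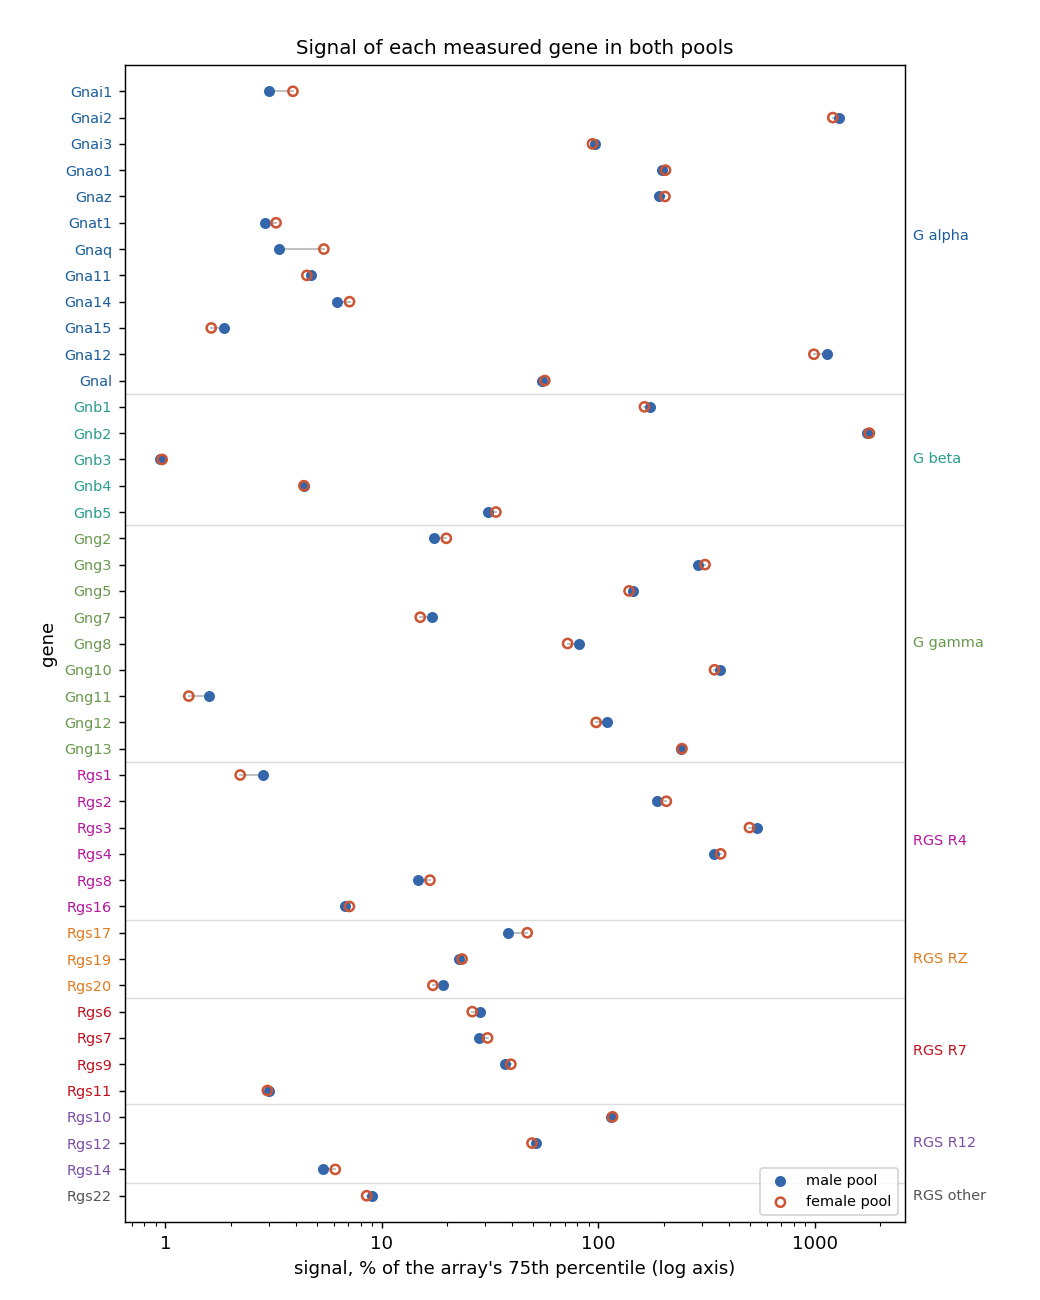
Signal of the 43 measured genes in males (filled) and females (open), as a percentage of the array's 75th percentile on a log axis, in classes down the page. The paired points lie close together for most genes, and Gnaq, at 3.34% in males and 5.39% in females, shows the widest gap.

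Promoter windows are shown for the 5 members at least 1.2-fold apart, and for Gng12 and Rgs4, whose repeat spots did not overlap among the 4 members with at least 8 spots. How often spots do not overlap among all probes with that many spots was not computed. Each runs 5′ to 3′ from 250 bases before to 50 bases after the annotated start in the RefSeq table of assembly GRCr8, which held 38 of the 48 members. Capitals mark matches to any of 6 motifs, searched on both strands. The core promoter motifs were the TATA box, searched as TATAAA, the CCAAT box, searched as those 5 letters, and the GC box, the site of Sp1-type factors, searched as GGGCGG. The response motifs were the cAMP response element of CREB-type factors, searched as TGACGTCA, the half-site bound by oestrogen receptors, searched as AGGTCA, and the half-site bound by androgen and glucocorticoid receptors, searched as AGAACA.
Gnaq, chr1:222852203-222852502, plus strand: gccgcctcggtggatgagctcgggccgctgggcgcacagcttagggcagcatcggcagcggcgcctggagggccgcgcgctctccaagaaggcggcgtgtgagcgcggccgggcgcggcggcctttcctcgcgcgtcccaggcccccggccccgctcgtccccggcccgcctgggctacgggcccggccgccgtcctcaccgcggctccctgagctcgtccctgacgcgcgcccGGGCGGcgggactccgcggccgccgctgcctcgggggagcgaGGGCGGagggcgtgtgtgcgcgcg
Gnai1, chr4:17705811-17706110, plus strand: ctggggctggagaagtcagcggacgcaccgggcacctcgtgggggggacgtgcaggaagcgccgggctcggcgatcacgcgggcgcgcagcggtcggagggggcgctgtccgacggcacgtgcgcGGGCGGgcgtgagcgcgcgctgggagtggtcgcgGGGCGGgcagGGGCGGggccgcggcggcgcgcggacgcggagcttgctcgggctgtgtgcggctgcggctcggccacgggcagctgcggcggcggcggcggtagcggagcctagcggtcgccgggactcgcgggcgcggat
Rgs17, chr1:44729896-44730195, minus strand: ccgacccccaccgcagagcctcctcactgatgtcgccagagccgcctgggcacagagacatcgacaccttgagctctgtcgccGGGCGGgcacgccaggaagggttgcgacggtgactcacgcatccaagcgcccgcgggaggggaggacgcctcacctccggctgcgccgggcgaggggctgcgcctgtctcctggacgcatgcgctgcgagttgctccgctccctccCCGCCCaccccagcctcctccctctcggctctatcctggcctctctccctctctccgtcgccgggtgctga
Gng11, chr4:32977431-32977730, plus strand: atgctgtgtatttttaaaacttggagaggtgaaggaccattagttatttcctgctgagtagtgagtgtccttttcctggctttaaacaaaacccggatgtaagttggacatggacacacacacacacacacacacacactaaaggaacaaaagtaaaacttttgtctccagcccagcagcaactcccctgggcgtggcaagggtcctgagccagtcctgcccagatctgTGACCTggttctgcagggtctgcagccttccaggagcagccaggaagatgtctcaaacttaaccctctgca
Rgs1, chr13:58573138-58573437, minus strand: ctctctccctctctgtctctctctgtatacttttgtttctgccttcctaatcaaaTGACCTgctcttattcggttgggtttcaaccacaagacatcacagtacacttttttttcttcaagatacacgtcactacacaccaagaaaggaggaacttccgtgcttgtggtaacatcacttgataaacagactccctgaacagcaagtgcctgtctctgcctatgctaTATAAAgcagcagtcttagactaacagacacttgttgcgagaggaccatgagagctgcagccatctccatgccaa
Gng12, chr4:97365711-97366010, plus strand: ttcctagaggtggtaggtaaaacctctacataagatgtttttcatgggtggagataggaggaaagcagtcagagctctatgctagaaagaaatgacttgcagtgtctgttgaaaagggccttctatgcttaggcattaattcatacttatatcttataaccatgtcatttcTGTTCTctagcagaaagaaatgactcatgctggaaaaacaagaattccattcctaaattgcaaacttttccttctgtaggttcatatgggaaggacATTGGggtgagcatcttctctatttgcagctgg
Rgs4, chr13:84475835-84476134, minus strand: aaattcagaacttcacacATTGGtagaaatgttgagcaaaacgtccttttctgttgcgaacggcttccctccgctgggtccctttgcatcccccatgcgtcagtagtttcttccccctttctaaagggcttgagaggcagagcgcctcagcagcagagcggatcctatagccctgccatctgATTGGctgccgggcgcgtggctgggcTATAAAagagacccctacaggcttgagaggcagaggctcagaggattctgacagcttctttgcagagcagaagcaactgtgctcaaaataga

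The 3 promoters of genes lower in males at 1.2-fold, those of Gnaq, Gnai1 and Rgs17, had G and C at 80.7%, 80.3% and 71.0% of bases, held GC boxes and no other searched motif. Those of Gng11 and Rgs1, higher in males, had 49.0% and 44.7%. Of the windows shown for their repeat spots, Gng12, higher in males, had 39.3%. Rgs4, lower in males, had 52.7% and no GC box. The median share of G and C was 51.7% in all 33469 promoters of this length. It was 62.8% in the 38 members' promoters, which ranged from 33.7% to 82.3%. The Gng11 and Rgs1 windows each held 1 oestrogen response half-site, a motif found in 16.2% of all promoters and in 10.5% of members' promoters. The Rgs1 and Rgs4 windows held a TATA box, present in 14.2% of all promoters and 10.5% of members' promoters. The Gng12 window held an androgen response half-site, present in 20.7% of all and 5.26% of members' promoters. Gng12 and Rgs4 held CCAAT boxes, present in 37.5% of all and 26.3% of members' promoters. GC boxes were present in 52.6% of members' promoters and 33.1% of all, and the cAMP response element in 2.63% and 1.83%. A match describes the letters only, and no relation to the differences was tested.

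Gnaq encodes the alpha subunit that activates phospholipase C beta downstream of receptors such as those for vasopressin and angiotensin. Its only probe read 3.34% in males and 5.39% in females, a log2 difference of -0.69 (1.61-fold lower in males; technical SD 0.25). The spot is dim and lies in a patch, and the difference was -0.32 with normexp. Among genes of similar signal (log2 -6 to -4), 3.56% were lower in males by 1.5-fold or more. Its close relative Gna11, which acts on the same enzyme, read 4.72% in males and 4.50% in females, within its technical SD of 0.25. Gna14, another gene of the Gq family, read 6.23% and 7.08% in males and females (-0.19), and its difference was 0.00 with normexp. Gna15, known from blood-forming cells, read 1.86% in males and 1.63% in females (0.19), on a spot in a patch and within its technical SD. The Gq family thus held 2 genes on each side of 0.

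The Gi/o alpha subunits inhibit adenylyl cyclase or signal through the beta-gamma dimers they release. Gnai1 read 3.002% in males and 3.88% in females, a difference of -0.37 (1.29-fold lower; technical SD 0.25), and of -0.07 with normexp. Its spot was outside patches, and 11.1% of genes of similar signal (log2 -6 to -4) were lower in males by 1.2-fold or more. Gnai2 read 1285% in males and 1208% in females (0.09), and its second probe gave 0.05. Gnai3, which had the smallest difference of the 3 Gnai genes, read 96.6% in males and 93.8% in females over 2 spots (0.04). Gnao1, whose product is the major alpha subunit of brain, read 196% in males and 204% in females (-0.06), but a second probe read 47.9% in males and 42.1% in females (0.18). Averaging its probes turned its sign, so the Gnao1 probes give no common direction. Gnaz, which encodes a slowly hydrolysing relative, read 190% in males and 203% in females (-0.10) on a probe matched through a predicted transcript. A second probe, for the curated transcript, was dim, at 1.83% in males and 1.89% in females (-0.05, within its technical SD of 0.25). In this family 2 of 5 genes were higher and 3 lower in males.

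Gna12, whose product acts through guanine nucleotide exchange factors on the cytoskeleton, read 1139% in males and 988% in females. Its difference of 0.20, on 1 spot of its only probe, was 2.82 technical SD. The value was 0.17 to 0.20 under every scaling and background setting run, all of which re-use that spot. Gna13, the other gene of its family, was not well above background in either sex. Gnal, which encodes the Golf subunit that stimulates adenylyl cyclase in olfactory and striatal neurons, read 55.1% in males and 56.5% in females (-0.04), the smallest difference among measured alpha genes, with a sign that turned with normexp. Gnat1, the rod photoreceptor transducin, read 2.88% in males and 3.24% in females, within its technical SD. Gnat2, the cone form, and Gnat3, the gustducin of taste cells, were not well above background in either sex. The 12 measured alpha genes had a median of -0.05, with 5 on the higher side and 7 on the lower. It became 0.00 with the mean over probes and with normexp, where 7 were higher and 5 lower.

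Beta subunits were close between the pools. Gnb1 read 173% in males and 163% in females over 2 spots (0.08), with 0.07 and 0.01 on its other probes. Gnb2 read 1730% in males and 1782% in females (-0.04). Both encode broadly expressed subunits, and their differences were under 2 technical SD. Gnb3, known from cone photoreceptors, read 0.946% and 0.965% in males and females, and Gnb4 read 4.36% in both, the smallest difference of all members. Gnb5, which encodes the divergent subunit that binds R7 RGS proteins, read 30.7% in males and 33.6% in females (-0.13; technical SD 0.087), and its second probe gave -0.10. The class median was -0.03, with 1 gene higher and 4 lower, and 0.00 with normexp, with 3 higher and 2 lower.

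**Figure D2:**
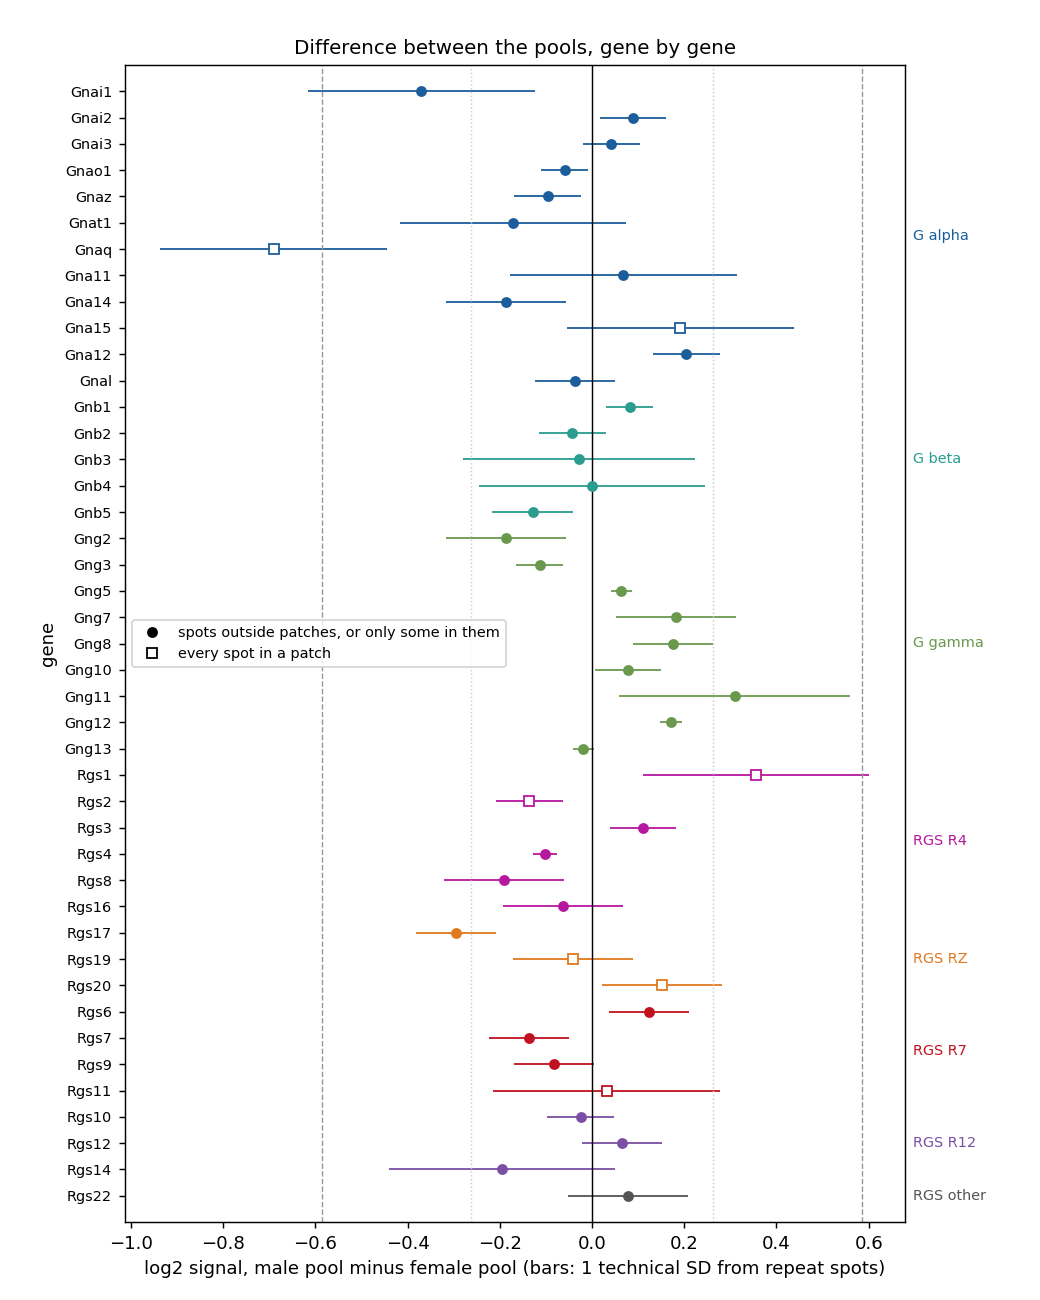
Difference in log2 signal, male pool minus female pool, for each of the 43 measured genes, with bars of 1 technical SD; dashed lines mark 1.5-fold and dotted lines 1.2-fold, and open squares are genes with every spot in a patch. Gnaq alone lies beyond a 1.5-fold line, and 38 of the 43 genes lie within 1.2-fold.

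Among gamma subunits, 6 of 9 were higher and 3 lower in males under every scaling run, and the median of 0.08 stayed positive. Gng12, a widely expressed subunit, was measured on 9 spots of 1 probe. They ranged from 106% to 115% in males (median 110%) and from 90.3% to 102% in females (median 98.3%), so the pools' spots did not overlap. Its difference was 0.17 (technical SD 0.024), and a second probe gave 0.18. Gng5, another widely expressed subunit, was higher in males on 10 of 10 spots by less, at 0.06 (technical SD 0.023). Its spots overlapped, from 138% to 156% in males and from 130% to 150% in females. Gng13, known from taste cells and retinal bipolar neurons, had a median spot at 241% in males and 245% in females over 10 spots (-0.02), within its technical SD of 0.023.

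Gng8, known from olfactory and vomeronasal neurons, was higher in males on each of its 3 probes. The chosen probe read 81.4% in males and 72.0% in females (0.18; technical SD 0.087), and the others gave 0.23 and 0.23. Gng11 read 1.59% in males and 1.28% in females, a difference of 0.31 (1.24-fold higher; technical SD 0.25) near the background, and of 0.09 with normexp. The share of genes of similar signal past that size was not computed for Gng11. Gng10 read 362% in males and 343% in females (0.08). Gng7, whose product partners Golf in the striatum, read 17.0% in males and 15.0% in females (0.18). Its dim second probe gave -0.14, within its technical SD of 0.25.

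Gng3, a subunit of neurons, was lower in males on both of its spots, at 287% in males and 311% in females (-0.11; technical SD 0.051). Gng2, also abundant in brain, read 17.4% in males and 19.8% in females (-0.19; technical SD 0.13). Both lay on the lower side with Gng13, whereas Gng8 of olfactory neurons and Gng7 of the striatum lay on the higher side. Gng4 and Gng14 had no probe matched to their symbols.

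**Figure D3:**
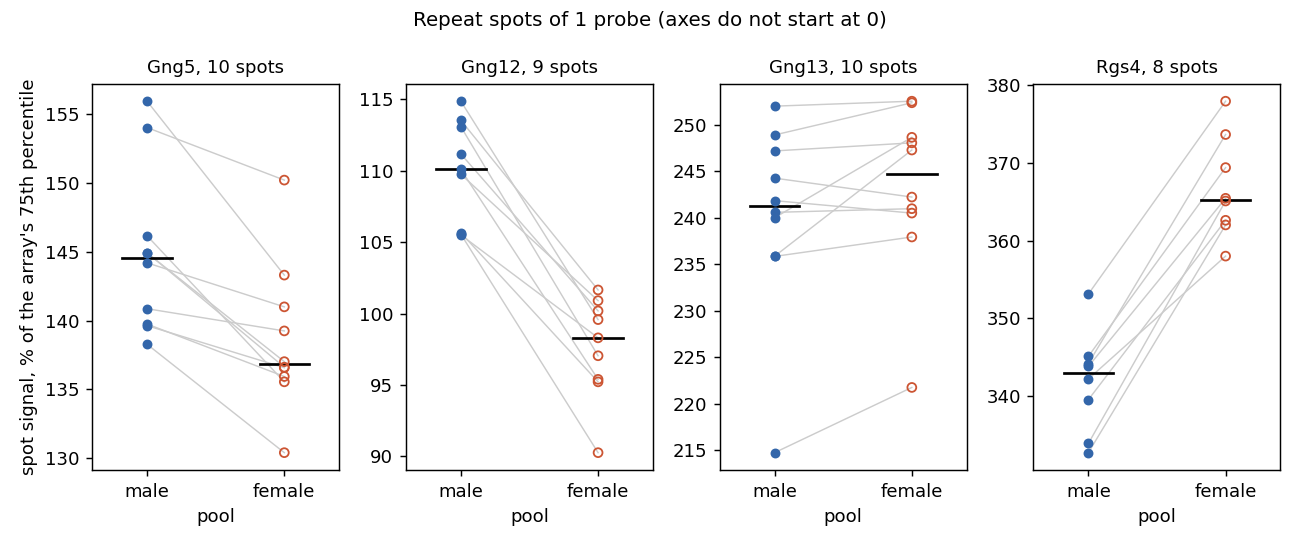
Signal of each repeat spot of 1 probe in males (left, filled) and females (right, open), as a percentage of the array's 75th percentile, for the 4 genes with at least 8 spots; lines join the same position on both arrays and bars are medians. The spots of Gng12 are all higher and those of Rgs4 all lower in males with no overlap, whereas those of Gng13 overlap. Repeat spots share 1 RNA pool and are not replicates. The share of all probes with at least 8 spots whose spots do not overlap was not computed.

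Among RGS genes, the R4 family of small proteins acting on Gi/o and Gq had a median of -0.08, negative under every alternative run. Of 6 measured genes, 2 were higher and 4 lower in males, and 3 and 3 with normexp. Rgs4, a regulator strongly expressed in neurons, had the smallest technical SD of the family. Its 8 spots ranged from 333% to 353% in males (median 343%) and from 358% to 378% in females (median 365%). They did not overlap, and the difference was -0.10 (technical SD 0.026), with -0.13 on a second probe. Rgs2, which acts mainly on Gq and whose loss raises blood pressure in mice, read 187% in males and 206% in females. That difference of -0.14 was 1.88 technical SD, on a single spot in a patch. Rgs8, a neuronal member, read 14.6% in males and 16.7% in females (-0.19; technical SD 0.13), with -0.14 on its second probe.

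Rgs16, a regulator with a daily rhythm in the mouse suprachiasmatic nucleus, had the smallest R4 difference, at 6.77% in males and 7.07% in females (-0.06), and its sign turned with normexp. On the higher side, Rgs3 read 538% in males and 498% in females (0.11; technical SD 0.072), with 0.15 on a second measured probe. Rgs1, known from lymphocytes and other immune cells, read 2.83% in males and 2.21% in females. This difference of 0.36 (1.28-fold higher; technical SD 0.25) came from a dim spot in a patch, and was 0.16 with normexp. Of genes of similar signal (log2 -6 to -4), 13.6% were higher in males by 1.2-fold or more. Rgs18, known from platelets, and Rgs21, known from taste cells, were not well above background in either sex, and Rgs13 had no matched probe.

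The RZ family acts on Gi/o subunits and Gz. Rgs17 read 38.2% in males and 46.9% in females, a difference of -0.30 (1.23-fold lower) at 3.40 technical SD on a spot outside patches. Among genes of similar signal (log2 -2 to 0), 1.44% were lower in males by 1.2-fold or more. The probe was matched through a predicted transcript, and a second probe, for the curated transcript, read 4.40% in males and 4.18% in females (0.07). The mean over both Rgs17 probes was -0.11. Rgs19 read 22.8% in males and 23.4% in females (-0.04), and Rgs20 read 19.1% and 17.2% in males and females (0.15), both on spots in patches.

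R7 proteins form stable complexes with the Gnb5 product. Rgs7 read 28.0% in males and 30.7% in females (-0.14; technical SD 0.087), the largest difference of the family, and Rgs9, which limits dopamine signalling in the striatum, read 37.2% in males and 39.4% in females (-0.08). Rgs6 read 28.5% in males and 26.1% in females (0.12), but its dim second probe gave -0.11, within its technical SD of 0.25. Rgs11, known from retinal bipolar neurons, read 3.02% in males and 2.96% in females (0.03), the smallest difference of the family, on a spot in a patch. With Gnb5, these 5 partners divided into 2 higher and 3 lower in males, and each difference was under 2 technical SD. The median of the 4 R7 genes was -0.03 with 2 on each side, 0.01 with normexp, and -0.05 with quantile normalization, where 1 was higher and 2 lower.

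Some proteins of the R12 family carry additional protein-binding domains. Rgs10, a gene of microglia and neurons, read 114% in males and 116% in females (-0.02), the smallest difference of the family, and its other probes gave -0.01 and 0.02. Rgs12 read 51.6% in males and 49.3% in females (0.06), with -0.03 on a second probe. Rgs14, known from hippocampal area CA2, read 5.32% in males and 6.09% in females (-0.20), within its technical SD of 0.25. The R12 median was -0.02, with 1 higher and 2 lower, and 0.07 with normexp, with 2 higher and 1 lower. Rgs22, a large member known from testis, read 8.98% in males and 8.50% in females (0.08; technical SD 0.13).

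**Figure D4:**
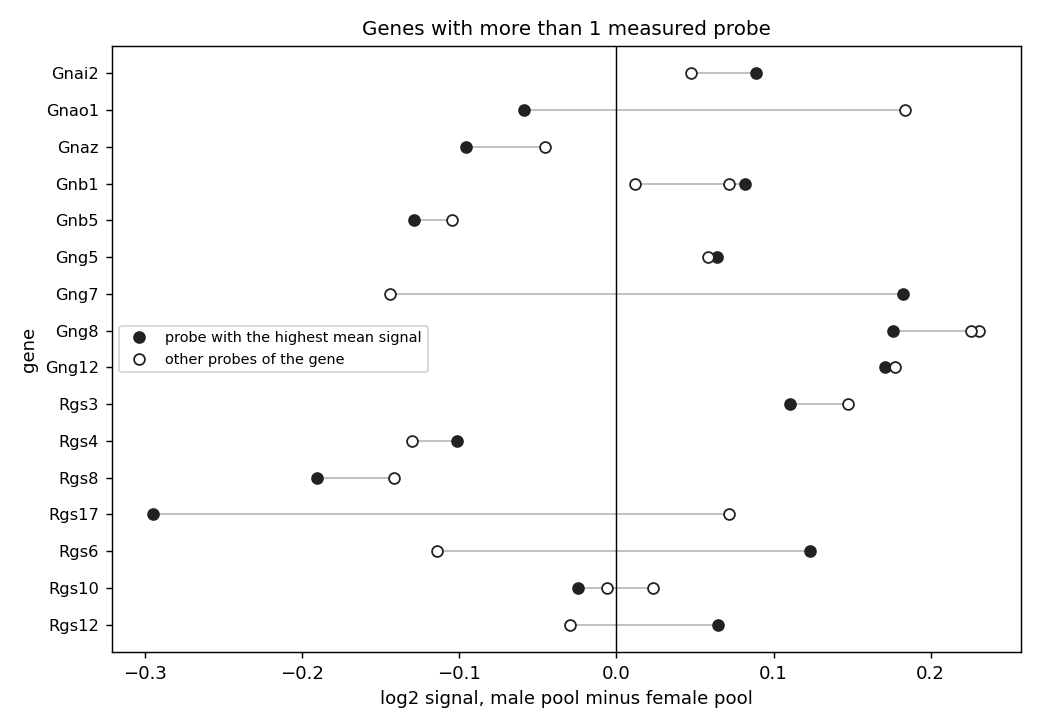
Difference in log2 signal, male pool minus female pool, on each measured probe of the 16 genes with more than 1; filled points are the probes with the highest mean signal. All probes of 10 genes lie on 1 side of 0, and the probes of Gnao1, Gng7, Rgs6, Rgs10, Rgs12 and Rgs17 lie on both. The second probes of Gnaz, Gng7, Rgs6 and Rgs17 were dim, and their differences lay within a technical SD of 0.25. The share of all genes with every probe on 1 side was not computed.

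Measured against technical spread, 4 members were over 2 technical SD higher in males (Gna12, Gng5, Gng8 and Gng12) and 4 were lower (Gnaq, Gng3, Rgs4 and Rgs17). Each direction was 9.30% of the members, against 6.07% of all genes higher and 5.64% lower. Probes with many spots have a smaller technical SD and pass this limit at smaller differences, which applies to Gng3, Gng5, Gng12 and Rgs4. Leaving out spots in patches removed 7 members (Gnaq, Gna15, Rgs1, Rgs2, Rgs11, Rgs19 and Rgs20) and left 15 of 36 higher and 21 lower.

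Genes that act with G proteins were likewise close between the pools. Of 16 measured partners (activators, chaperones and anchoring proteins), 8 were higher and 8 lower in males, and 4 and 12 with median centring; the median was -0.003. Gpsm3, a G protein modulator of immune cells, read 4.90% in males and 3.93% in females (0.32; technical SD 0.25), and Rgs9bp, which anchors an RGS complex, was at 0.17 near the background. The effectors' median was -0.05, with 5 of 20 higher and 15 lower, and -0.01 with normexp, with 9 higher and 11 lower. The adenylyl cyclase gene Adcy7 read 2.26% in males and 2.87% in females (-0.35) on a spot in a patch, and the potassium channel gene Kcnj5 read 12.03% and 13.9% in males and females (-0.21; technical SD 0.13). Over 2 technical SD lower were 2 other cyclase genes outside patches. Adcy6 read 58.5% in males and 67.7% in females (-0.21; technical SD 0.087), and Adcy9 read 38.5% in males and 43.9% in females (-0.19; technical SD 0.087); both were chosen after their values were seen. For Plcb2, a phospholipase C gene, the background limit was passed in females only. For receptor kinases and arrestins the median was -0.04, with 3 of 7 higher and 4 lower, and 0.05 with the mean over probes, with 4 higher and 3 lower; Grk5 was at 0.20 and Grk3 at 0.14, both within a technical SD of 0.25. None of these 3 lists had a gene at least 1.5-fold apart.

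Cell type markers differed between the pools. The 12 neuron markers had a median of -0.07, with 2 higher and 10 lower, and a summed signal of 4443% in males and 4706% in females. The hypothalamic markers had a median of -0.08, with 3 of 11 higher. Striatum markers had 2 of 9 higher and 7 lower, and 1 and 8 with median centring (median -0.16; summed 691% in males and 778% in females), and the marker Gpr6 was not well above background in either sex. Glial and vascular markers went the other way. Oligodendrocyte markers were higher for 11 of 12 genes (median 0.16), astrocyte markers for 9 of 10 (0.08), microglia markers for 10 of 12 (0.08), and endothelial and mural markers for 12 of 15 (0.13). Other scalings left 7 of the 10 astrocyte markers (quantile) and 10 of the 15 endothelial and mural markers (median centring) higher. Summed signals in males and females were 18045% and 16631% for oligodendrocytes, 12498% and 11845% for astrocytes, 1227% and 1162% for microglia, and 912% and 857% for endothelial and mural cells. All 10 fibroblast markers were higher, with a median of 1.21 and a summed signal of 559% in males and 283% in females, as were all 5 red cell markers measured on both arrays, with a median of 0.84 and a summed signal of 2357% in males and 1369% in females. The part of these shifts in the values of Rgs4, Gng3, Gng12, Gna12, Rgs1 or other members was not tested.

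**Figure D5:**
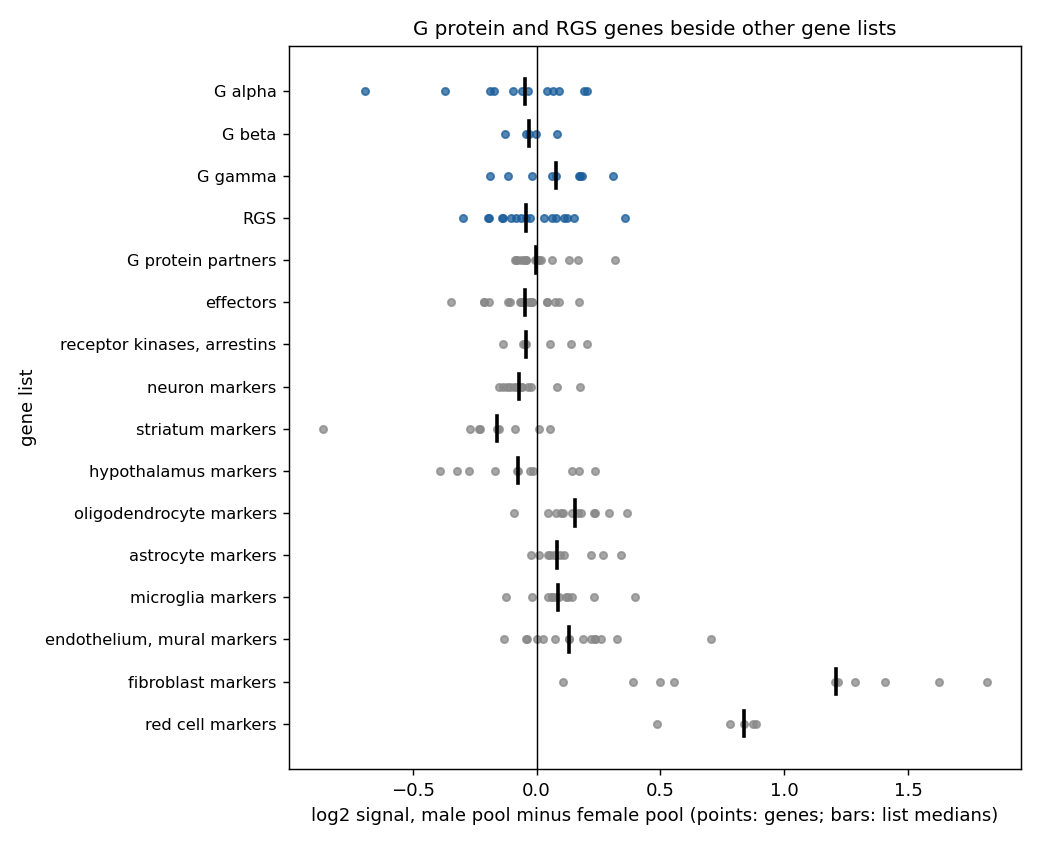
Difference in log2 signal, male pool minus female pool, for each gene measured on both arrays (points) with list medians (bars): G protein and RGS genes in the top 4 rows, then other signalling genes and cell type markers. Medians of the top 4 rows lie between -0.05 and 0.08, whereas those of the fibroblast and red cell markers are at 1.21 and 0.84.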

How the data were processed

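The authors deposited 1 scanner file per array and a table of values. Per the file headers, the scanner files hold spot intensity, the processed signal with background subtracted by Feature Extraction 11.5.1.1 (protocol GE1_1105_Oct12; rn4 as the design's build). Version 9.1 is named per the submitters' processing notes. The deposited table gives the same intensity as a percentage (out of 100) of that array's 75th percentile, as found by comparing the values. Here, 664 outlier spots of 58717 rat transcript spots were left out, the 75th percentile was subtracted on the log2 scale within each array, and repeat spots were averaged. Probes counted as well above background if over 50% of their spots did. Accessions were matched to symbols of GRCr8 (21109 of 45598 probes). Per gene, the probe with the highest mean signal was used. A threshold of 1.5-fold was applied with no test; members at least 1.2-fold apart, and the largest and smallest difference per class, were named. Members, lists and thresholds were chosen with earlier results of these data known. Alternatives were median centring, quantile normalization, normexp (offset 50; limma 3.58.1) on median spot and background intensity, the mean over probes, the deposited table, no spots in patches, a fold of 2 and other filters. The number of arrays limits the precision. On simulated data the calculation recovered known differences, set only on genes with log2 signal above -4. The simulated noise was the technical SD itself, so dimmer genes, patches, arrays and animals were not covered. Python 3.11.15 was used.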

Additional observations from a re-analysis of the deposited data

How the results depend on the processing

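Under every alternative, 0 members were higher in males by 1.5-fold or more. The count lower by that much was 1 (Gnaq), and was 0 with normexp, 0 without spots in patches, where Gnaq has no spot left, and 0 at a fold of 2. It was 2 with no filter on dim probes, which adds Gna13, not well above background in either sex. The median of -0.02 became 0.0162 with normexp and lay between -0.0555 and -0.0025 under the other alternatives. Normexp adds an offset of 50 units, which shrinks differences of dim genes by construction. Of the 43 measured members, 36 had no value of the opposite sign under any setting, although Rgs11 was at 0.0 with quantile normalization. The other 7 turned: Gna14, Gnal, Gnb3, Gnb4, Rgs10 and Rgs16 with normexp and Gnao1 with the mean over probes, and the cause was not tested. Several settings could turn few signs. The deposited table re-uses the same intensities, and leaving out patches keeps the values of all other spots. Median centring shifts every gene by the same amount. The share of all genes that kept their sign was not computed. Normexp was run on median spot signals. No paired analysis was possible because each sex had 1 array. Leaving out a replicate was not possible for the same reason.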

Other observations

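Several members are neighbours in GRCr8, a feature the selection did not use. Chromosome 13 carried 8 of the 48 members, and Rgs2, Rgs13, Rgs1, Rgs21 and Rgs18 follow each other there with no other protein-coding gene between them. Of that run, Rgs2 was at -0.14 and Rgs1 at 0.36 (male minus female, log2), both on spots in patches, and the other genes were not measured. Rgs8 and Rgs16, next to each other on the same chromosome, were at -0.19 and -0.06. On chromosome 7, Gna11 and Gna15 were at 0.07 and 0.19, and on chromosome 1, Gnaq and Gna14, with 1 protein-coding gene between them, were at -0.69 and -0.19. On chromosome 8, Gnai2 and Gnat1, also with 1 gene between them, were at 0.09 and -0.17. Members lay on 17 chromosomes, and none on X or Y.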
